A study of Mus musculus with 13 samples.

Results

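The lysosomal cathepsins studied here are 8 protease genes, Ctsa, Ctsb, Ctsc, Ctsd, Ctsh, Ctsl, Ctss and Ctsz, chosen by name as the rows of the deposited feature table with these symbols. All 8 were found among 22598 genes. They were followed in single-cell RNA sequencing of myeloid cells sorted from mouse spinal cord, in which 22148 cells came from 13 libraries. The mice carried the Cx3cr1YFPCreERT2:R26tdTomato alleles, in which a tamoxifen-inducible Cre recombinase placed at the Cx3cr1 locus turns on the red protein tdTomato. Long-lived resident cells keep that mark, and blood-derived cells that are replaced after tamoxifen do not. The mice were of 3 kinds: mice in the chronic phase of experimental autoimmune encephalomyelitis (EAE, an immune attack on myelin), mice at the peak of EAE, and control mice described as healthy. The groups were chronic EAE infiltrating cells (n = 3 libraries), peak EAE infiltrating cells (n = 2), chronic EAE resident cells (n = 3), peak EAE resident cells (n = 2) and control resident cells (n = 3), and all 5 groups carried the same alleles. Control infiltrating cells were not analysed here, and the ages of the mice are not given in the sources used here. The mark is driven by Cx3cr1 in any cell that used the locus, so it does not by itself separate microglia from other long-lived Cx3cr1-expressing macrophages.

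Cathepsins are made as inactive precursors, tagged with mannose 6-phosphate, carried to the lysosome by sorting receptors and activated there at acid pH, where they break down proteins delivered by phagocytosis, endocytosis or autophagy. Most of them are cysteine proteases held in check by cystatins. In antigen-presenting cells they also trim the invariant chain Cd74 from MHC class II and cut the antigens that are loaded. Microglia and macrophages are rich in cathepsins, and loss of cathepsin D causes a lysosomal storage disease of the nervous system in mice and people. The 8 genes split by catalytic type. Ctsb, Ctsl and Ctss encode cysteine endopeptidases, Ctsc, Ctsh and Ctsz encode cysteine exopeptidases, Ctsd encodes an aspartic protease, and Ctsa encodes a serine carboxypeptidase that also protects neuraminidase and beta-galactosidase.

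Promoters of 6 of the 8 genes, 250 bases before to 50 bases after the annotated start, were matched in a RefSeq table for the GRCm38.p6 build, and those of Ctsb and Ctsh were not. Stretches of 120 bases ending at the start are shown, because Ctsa and Ctsd share a palindromic motif and Ctss carries one seen in interferon-responsive genes. For Ctsa and Ctsd that start lies inside the gene spans given further below, so both stretches lie within those spans and not before them. Capitals mark TCACGTG on either strand, the core bound by the transcription factors TFEB and TFE3 of lysosomal genes, in Ctsa and Ctsd, and GAAANNGAA, the core bound by interferon regulatory factors, in Ctss.
Ctsa, chr2:164833653-164833772 plus strand: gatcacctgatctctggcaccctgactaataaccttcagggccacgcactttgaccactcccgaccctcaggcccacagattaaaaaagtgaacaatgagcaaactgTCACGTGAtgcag
Ctsd, chr7:142387828-142387947 minus strand: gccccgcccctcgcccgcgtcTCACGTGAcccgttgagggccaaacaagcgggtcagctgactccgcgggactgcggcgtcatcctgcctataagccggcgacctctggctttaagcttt
Ctss, chr3:95526666-95526785 plus strand: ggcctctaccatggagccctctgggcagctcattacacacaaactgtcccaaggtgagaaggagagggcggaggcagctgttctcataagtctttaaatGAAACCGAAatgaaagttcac
TCACGTG was found in 2 of the 6 promoters (Ctsa and Ctsd) and in 3.77% of all 32851 promoters of the table. The shorter CACGTG, which TCACGTG contains, was found in 3 of the 6 (Ctsa, Ctsd and Ctsl) and in 7.15% of all promoters. GAAANNGAA was found in 1 of the 6 (Ctss) and in 8.56% of all promoters. GAGGAAG, a core of PU.1 sites, was found in 2 of the 6 (Ctsc and Ctss) and in 13.6% of all promoters. Both strands were searched, the motifs were chosen with these promoters in view, and a match describes letters only, not binding.

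Cells were summed into one profile per library before any comparison, since cells of a library are not replicates. Microglia as annotated in the deposited cell table were summed in resident libraries, and annotated monocytes plus macrophages in infiltrating libraries. A level is given in CPM, the count scaled to a common library total, scaled between libraries by TMM, and a log2 fold change with its standard error and Benjamini-Hochberg adjusted p comes from edgeR's quasi-likelihood test over 11479 genes, with an adjusted p under 0.05 called. Library totals ran between 4111257 and 22450385 unique molecular identifiers (UMIs), and each of the 8 genes had at least 858 UMIs in every sum, so counting error is small beside the spread between libraries. A column of the deposited cell table named SLX sorts the 13 libraries into 4 sets, called pools A to D here, and no pool held both disease stages. What a pool shares is not stated in the table, which also gives each library 1 batch date, with 2 dates in pool C and 1 in each other pool. Pool D held chronic libraries a and b of both gates, pool B held chronic library c of both gates with control c, pool C held both peak resident libraries with peak infiltrating b and control b, and pool A held peak infiltrating a with control a. One library stood apart: in chronic infiltrating b, 81.2% of the cells were annotated as microglia, against 1.80% and 13.4% in the other chronic infiltrating libraries. Among all cells, 55 barcodes occurred in more than 1 library. In microglial sums, the 7 microglial markers together stood at 10709 to 12105 CPM in chronic EAE, 5942 to 7192 CPM at peak EAE and 18137 to 22876 CPM in controls, with 0 of the 7 at 0 in any library. The 5 monocyte markers summed to 1.84 to 4.15 CPM in chronic EAE microglia, 11.9 to 37.9 CPM in peak EAE microglia and 1.74 to 6.46 CPM in control microglia, with up to 3 of the 5 at 0. Median UMIs per cell were 2558 to 3560.0 in chronic EAE resident libraries, 8613.5 to 8648 in peak EAE resident libraries and 3020.0 to 4477 in control libraries, and the median share of mitochondrial counts was 1.00% to 1.49%, 2.30% to 2.65% and 1.09% to 1.46% in the same order of groups. The part of these differences in markers, depth and mitochondrial share in the cathepsin results was not tested.

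Microglia carried more cathepsin transcripts in EAE than in control cords, and the rise was uneven over the family. In chronic EAE microglia, 5 of the 8 genes rose, where 11.3% of the 11479 genes tested rose and 6.46% fell. At peak EAE, 4 of the 8 rose, where 12.3% of genes rose and 9.67% fell. Ctsb, Ctsd and Ctsz rose at both stages, Ctsa and Ctsl were called in the chronic phase, and Ctsc was called at peak. The 8 genes together summed to 33414 to 47337.5 CPM in chronic EAE microglia, 28969.9 to 33687.5 at peak EAE and 15621 to 20372 in controls, with no overlap between EAE and control libraries. The median log2 fold change of the 8 was 1.14 in chronic EAE and 0.76 at peak EAE, against -0.01 and 0.00 over all genes tested. Both comparisons use the same 3 control libraries. Scaling by library totals alone moved the median of all genes to -0.49 in chronic EAE and -0.32 at peak EAE, and 3 and 2 of the 8 were then called in that order. The count of all genes called in chronic EAE also rose with this scaling, as given in the closing section. There, 3 of 8 was near the share of all genes called in either direction.

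**Figure D1:**
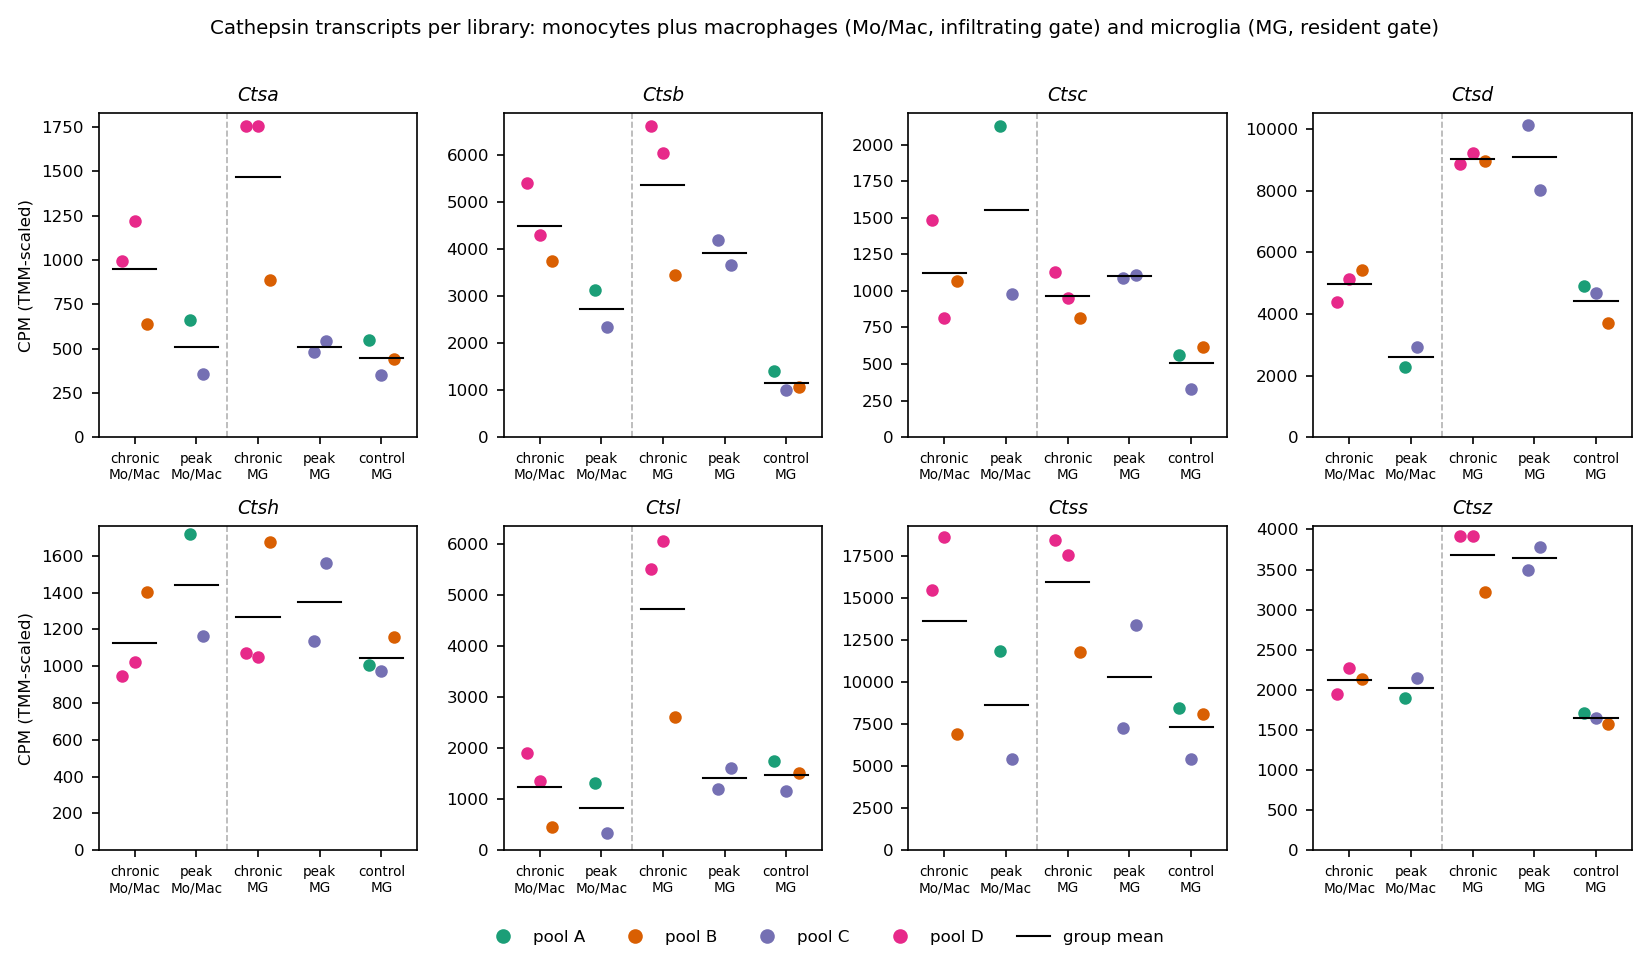
Level of each of the 8 cathepsins (vertical axis, TMM-scaled CPM from 0) in each library by group (horizontal axis), with monocytes plus macrophages of the infiltrating gate left of the dashed line and microglia of the resident gate right of it. Points are libraries coloured by pool and bars are group means. Ctsd and Ctsz of EAE microglia lie above all control microglia at both stages, and for Ctsl, Ctss and Ctsa the 2 chronic libraries of pool D lie above the chronic library of pool B.

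Ctsb (chr14:63122462-63145923, plus strand, GRCm38), which encodes a broad endopeptidase and dipeptidyl carboxypeptidase, changed most. Its level was 6615, 6048 and 3462 CPM in chronic EAE microglia a, b and c, 4190.4 and 3656 CPM in peak EAE microglia a and b, and 1399.8, 1014 and 1062 CPM in control microglia a, b and c. Every EAE library lay above every control. The log2 fold change over control was 2.21 ± 0.30 in chronic EAE (SE, edgeR quasi-likelihood test, adjusted p = 0.00026) and 1.76 ± 0.32 at peak EAE (adjusted p = 0.00179). Both calls held under every alternative run, and without the pool D libraries the 1 chronic library left had a log2 fold change of 1.58 (adjusted p = 0.0247).

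Ctsl (chr13:64359337-64370890, minus strand) encodes an endopeptidase known for cutting the invariant chain in thymic epithelium. Its level was 5512, 6063 and 2614 CPM in chronic EAE microglia, 1209.6 and 1615 CPM in peak EAE microglia and 1755, 1166 and 1516 CPM in control microglia. All 3 chronic libraries lay above both other groups, and peak and control overlapped. The log2 fold change was 1.68 ± 0.53 in chronic EAE over control (SE, edgeR quasi-likelihood test, adjusted p = 0.0436) and -0.07 ± 0.58 at peak EAE over control (adjusted p = 0.952). The chronic call was lost with pool as a term, where the log2 fold change was 0.57 with an adjusted p of 0.694, and when chronic library a or b or any control library was left out, where the adjusted p ran between 0.0855 and 0.156. Without the pool D libraries the log2 fold change was 0.82 (adjusted p = 0.701).

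Ctss (chr3:95526786-95556403, plus strand) encodes the endopeptidase that stays active at neutral pH and removes the invariant chain in macrophages and dendritic cells. Its level was 18458, 17558 and 11779 CPM in chronic EAE microglia, 7244 and 13377 CPM in peak EAE microglia and 8477, 5434 and 8076 CPM in control microglia. The chronic libraries lay above all controls, while peak library a lay among the controls and peak library b above them. The log2 fold change of 1.12 ± 0.41 in chronic EAE missed the threshold (SE, edgeR quasi-likelihood test, adjusted p = 0.0749), as did 0.49 ± 0.45 at peak EAE (adjusted p = 0.477). DESeq2 called the chronic difference (adjusted p = 0.0313).

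Ctsz (chr2:174427493-174439039, minus strand) encodes a carboxypeptidase that removes single residues. Its level was 3916, 3919.8 and 3214 CPM in chronic EAE microglia, 3493 and 3784 CPM in peak EAE microglia and 1708, 1654 and 1569 CPM in control microglia. The 5 EAE libraries lay close together and well above the controls. Over control, the log2 fold change was 1.16 ± 0.22 in chronic EAE (SE, edgeR quasi-likelihood test, adjusted p = 0.00274) and 1.15 ± 0.24 at peak EAE (adjusted p = 0.00413). Without the pool D libraries, the chronic value was 0.97 with an adjusted p of 0.145.

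Ctsc (chr7:88278085-88310888, plus strand) encodes dipeptidyl peptidase 1, which activates granule serine proteases. Its level was 1129, 950.1 and 812 CPM in chronic EAE microglia, 1087 and 1110.1 CPM in peak EAE microglia and 563, 331 and 618 CPM in control microglia. Both EAE groups lay above the controls in every library. The log2 fold change over control was 0.93 ± 0.34 in chronic EAE, which was not called (SE, edgeR quasi-likelihood test, adjusted p = 0.0683), and 1.12 ± 0.37 at peak EAE (adjusted p = 0.0415). The peak call was lost when any 1 of the 5 libraries was left out, with log2 fold changes between 0.85 and 1.27 and adjusted p between 0.0636 and 0.161. It was also lost with library totals alone (adjusted p = 0.075) and over all cells of each library (adjusted p = 0.0869).

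Ctsh (chr9:90054152-90076089, plus strand), whose product is mainly an aminopeptidase, had the smallest log2 fold change of the 8 in chronic EAE. Its level was 1070.2, 1052 and 1674 CPM in chronic EAE microglia, 1138 and 1558 CPM in peak EAE microglia and 1005, 973 and 1157 CPM in control microglia. The groups overlapped. Over control, the log2 fold change was 0.28 ± 0.28 in chronic EAE (SE, edgeR quasi-likelihood test, adjusted p = 0.499) and 0.37 ± 0.31 at peak EAE (adjusted p = 0.425). The chronic value changed sign, to -0.19, when libraries were scaled by their totals alone.

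Ctsd (chr7:142375911-142388038, minus strand) encodes the main aspartic protease of lysosomes. Its level was 8881, 9234 and 8968 CPM in chronic EAE microglia, 10128 and 8045 CPM in peak EAE microglia and 4915, 4696 and 3699.6 CPM in control microglia. No EAE library overlapped the controls, and the 3 chronic libraries agreed within a narrow range although they came from pools B and D. The log2 fold change over control was 1.02 ± 0.25 in chronic EAE (SE, edgeR quasi-likelihood test, adjusted p = 0.0113) and 1.03 ± 0.27 at peak EAE (adjusted p = 0.0138). Both calls were lost with library totals alone (adjusted p = 0.0972 and 0.0691) and without control c (adjusted p = 0.0603 and 0.0718), and the peak call was lost without peak library a (adjusted p = 0.111), with no filter on low counts (adjusted p = 0.0568) and over all cells of each library (adjusted p = 0.0728). The chronic call was lost without the pool D libraries, where the log2 fold change of the 1 library left was 1.02 (adjusted p = 0.184).

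Ctsa (chr2:164832873-164841032, plus strand) was the 1 member called between the stages of EAE. Its level was 1755, 1757 and 889.6 CPM in chronic EAE microglia, 479.5 and 544 CPM in peak EAE microglia and 549, 353 and 440.4 CPM in control microglia. The chronic libraries lay above all others, and both peak libraries lay within the range of the controls. The log2 fold change over control was 1.71 ± 0.35 in chronic EAE (SE, edgeR quasi-likelihood test, adjusted p = 0.00415) and 0.19 ± 0.38 at peak EAE (adjusted p = 0.755). With pool as a term the chronic value was 1.08 (adjusted p = 0.0523), without the pool D libraries it was 0.99 (adjusted p = 0.269), and with libraries scaled by their totals alone the peak value changed sign, to -0.13.

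**Figure D2:**
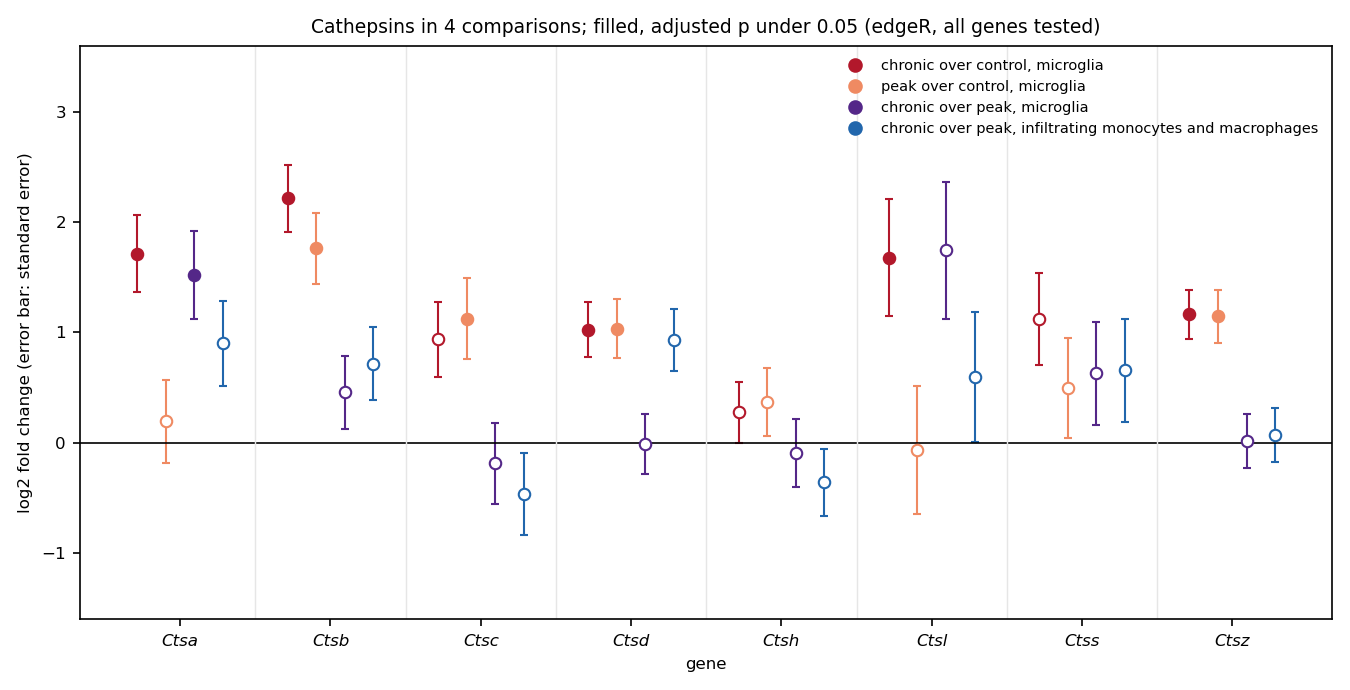
Log2 fold change with its standard error (vertical axis) for each cathepsin (horizontal axis) in 4 comparisons from edgeR; filled points had an adjusted p under 0.05 over all genes tested. Ctsb, Ctsd and Ctsz are filled in both comparisons of EAE microglia with control microglia, Ctsa is filled in the comparison of chronic with peak EAE microglia, and no point is filled for infiltrating monocytes and macrophages.

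Set directly against peak EAE microglia, chronic EAE microglia had more Ctsa, with a log2 fold change of 1.52 ± 0.40 (SE, edgeR quasi-likelihood test, adjusted p = 0.0337). It was the 1 member called, where 4.75% of the 11479 genes tested were higher in chronic EAE and 5.04% lower. Ctsl stood 1.74 ± 0.62 higher on the log2 scale and was not called by edgeR (adjusted p = 0.0817), while DESeq2 called it (adjusted p = 0.0241). The other 6 members had log2 fold changes from -0.19 for Ctsc to 0.63 for Ctss, and Ctsd (-0.01 ± 0.27) and Ctsz (0.02 ± 0.24) were nearest to 0. Stage and pool are bound together here, because the chronic libraries came from pools B and D and the peak libraries from pool C. With pool as a term the log2 fold change was 0.48 for Ctsa (adjusted p = 0.765) and -0.01 for Ctsl, and the Ctsa call was also lost when chronic library a or b or either peak library was left out (adjusted p between 0.0861 and 0.23).

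Within single groups, Ctsl, Ctss and Ctsa stood further apart between pools than Ctsd and Ctsz in each of 3 groups, and Ctsb and Ctsc stood apart in some. In chronic EAE microglia, the 2 libraries of pool D averaged 5788 CPM of Ctsl, 18008 CPM of Ctss and 1756 CPM of Ctsa, and the library of pool B held 2614, 11779 and 889.6 CPM of the same genes in that order. In chronic EAE infiltrating monocytes and macrophages, the lower of the 2 pool D libraries was 2.98 times the pool B library for Ctsl, 2.24 times for Ctss and 1.55 times for Ctsa. In peak EAE infiltrating cells, the pool A library was 3.95 times the pool C library for Ctsl, 2.18 times for Ctss and 1.85 times for Ctsa. The same folds ran from 0.778 to 1.22 for Ctsd and Ctsz across these 3 groups. Ctsb of chronic EAE microglia was 1.75 to 1.91 times higher in pool D than in pool B, and Ctsc of peak EAE infiltrating cells was 2.18 times higher in pool A than in pool C. Ctsh went the other way in both chronic groups, with pool D at 0.628 to 0.728 of pool B. Libraries of the same pool could differ too. In pool C, peak EAE microglia a and b had 7244 and 13377 CPM of Ctss. The same 2 libraries had 1209.6 and 1615 CPM of Ctsl and 479.5 and 544 CPM of Ctsa. Control microglia, with 1 library in each of pools A, B and C, are not part of the 3 groups. Pools also differ in which mice they hold, so mouse and pool cannot be told apart. Inside pool B, where 1 chronic library meets 1 control, the chronic to control difference on the log2 scale was 1.70 for Ctsb, 1.28 for Ctsd, 1.03 for Ctsz, 1.01 for Ctsa, 0.79 for Ctsl, 0.54 for Ctss, 0.53 for Ctsh and 0.39 for Ctsc. Inside pool C, where 2 peak libraries meet 1 control, it was 1.95 for Ctsb, 1.73 for Ctsc, 1.14 for Ctsz, 0.95 for Ctsd, 0.92 for Ctss, 0.54 for Ctsa, 0.47 for Ctsh and 0.28 for Ctsl. These single-pool values have no test.

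Infiltrating monocytes and macrophages showed 0 called cathepsins between chronic and peak EAE by edgeR's quasi-likelihood test, where 0.566% of the 11479 genes tested were higher in chronic EAE and 0.227% lower. Of the 8, 3 had an unadjusted p under 0.05, as had 1932 of the 11479 genes tested. DESeq2 called 1 of the 8, Ctsd, among 400 genes called. Ctsd stood at 4376, 5130.2 and 5438 CPM in chronic EAE infiltrating libraries a, b and c and at 2286 and 2937 CPM in peak EAE infiltrating libraries a and b, with no overlap. Its log2 fold change was 0.93 ± 0.28 (SE, edgeR adjusted p = 0.132, DESeq2 adjusted p = 0.00055). Ctsb stood at 5415, 4315 and 3745 CPM in chronic EAE and at 3127 and 2351 CPM at peak EAE, also without overlap, with a log2 fold change of 0.71 ± 0.33 (edgeR adjusted p = 0.293). Ctsa had 995, 1220.4 and 640.4 CPM in chronic EAE and 662 and 358 CPM at peak EAE, which overlapped, with a log2 fold change of 0.90 ± 0.39 (edgeR adjusted p = 0.264). Ctsc and Ctsh had lower means in chronic EAE, with log2 fold changes of -0.47 ± 0.37 and -0.36 ± 0.31, and neither was called (edgeR adjusted p = 0.547 and 0.577). The 5 monocyte markers summed to 813 to 3584 CPM in the chronic infiltrating sums and 5112 to 9337 CPM in the peak infiltrating sums. The 7 microglial markers summed to 634 to 1501 and 429 to 552 CPM in the same order. The part of these marker differences in the results was not tested. In macrophages alone, scaled by class totals, Ctsd was 4236 to 5925 CPM in chronic EAE and 2998 to 4251 CPM at peak EAE. Their Ctsb was 3698 to 5142 and 3231 to 4113 CPM, and both genes overlapped. In monocytes alone, Ctsd was 1326 to 2077 and 916 to 1206 CPM. Their Ctsb was 1525 to 1919 and 1154 to 1244 CPM, both without overlap.

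The change from peak to chronic EAE was not shown to differ between infiltrating cells and microglia for any member. The interaction test of edgeR called 0 of the 8, where 0.0436% of genes were called in either direction, and DESeq2 also called 0. Among the 11479 genes tested, 823 had an unadjusted p under 0.05, and 1 of the 8 members did. It was Ctsd (edgeR adjusted p = 0.618), with a difference of 0.94 ± 0.38 on the log2 scale. That value sets a chronic to peak difference of 0.93 in infiltrating cells against one of -0.01 in microglia.

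The sort gates were compared over all cells of each library, since the gate was set by fluorescence and not by RNA, and 11787 genes were tested. At peak EAE, Ctsd fell in the infiltrating gate, to 2029.98 and 2522 CPM, against 9578 and 7903 CPM in the resident gate, with a log2 fold change of -1.94 ± 0.38 (SE, edgeR quasi-likelihood test, adjusted p = 0.00763). It was the 1 member called, where 9.36% of genes were higher in the infiltrating gate and 9.48% lower. Ctsb and Ctsl also had no overlap between gates, with log2 fold changes of -0.68 ± 0.42 and -0.93 ± 0.81. Neither was called (edgeR adjusted p = 0.264 and 0.426), and the share of all genes without overlap is not given here. Inside pool C, with 1 infiltrating and 2 resident libraries, untested log2 ratios ran from -2.27 for Ctsl to -0.35 for Ctsh. Ctsz stood at 1695 and 1880.3 CPM in the infiltrating gate and 3378 and 3750.1 CPM in the resident gate, with a log2 fold change of -0.995 ± 0.35 that edgeR did not call (adjusted p = 0.0614) and DESeq2 did (adjusted p = 0.00795). The Ctsd call was lost without peak infiltrating library a or peak resident library a (adjusted p = 0.0819 and 0.0533), where its log2 fold change was -1.80 in both.

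In chronic EAE, edgeR called 0 of the 8 between gates, where 1.59% of genes were higher in the infiltrating gate and 0.00848% lower. By edgeR, 2 members had an unadjusted p under 0.05, as had 2097 of the 11787 genes tested. DESeq2 called 1 member, among 578 genes called. Ctsd stood at 4069.9, 7038 and 3697 CPM in infiltrating libraries a, b and c and at 8590.4, 8897 and 9415 CPM in resident libraries (log2 fold change -0.86 ± 0.30, edgeR adjusted p = 0.183). Ctsz stood at 1864, 3182 and 1613 CPM in infiltrating libraries and at 3703, 3682 and 3351 CPM in resident libraries (log2 fold change -0.69 ± 0.28, edgeR adjusted p = 0.241). Both genes were lower in all 3 infiltrating libraries than in any resident library, and the share of all genes without overlap is not given here. The infiltrating library nearest to the resident gate was b, the one made mostly of microglia. Without it, the log2 fold changes were -1.21 for Ctsd and -1.04 for Ctsz, and both were called (adjusted p = 0.0128 and 0.015). With all libraries 188 genes were called, and that count moved widely when 1 library was left out. The share of all genes called without library b is not given here, so these 2 calls have no background to be read against. Inside pool B, the untested log2 ratio of infiltrating over resident cells ran from -2.60 for Ctsl to -0.21 for Ctsc. Inside pool D it ran from -0.82 for Ctsl to 0.17 for Ctsc. In sums over all cells, a different mix of cell types and a different level per cell cannot be told apart.

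**Figure D3:**
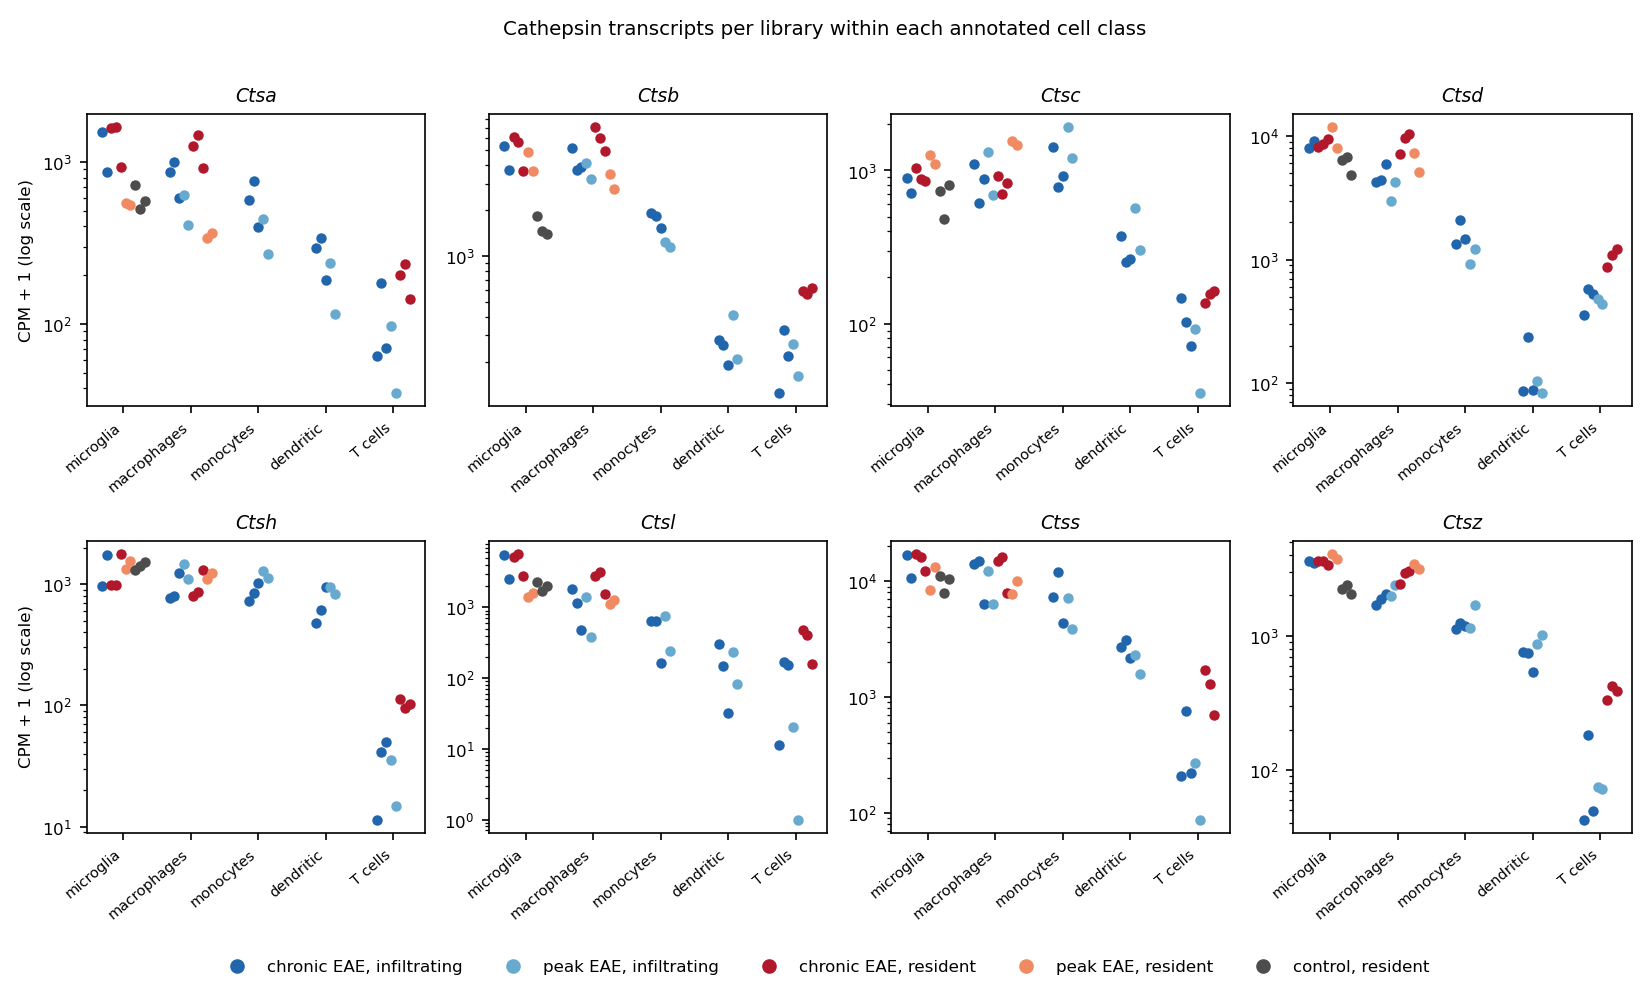
Level of each cathepsin (vertical axis, CPM + 1 on a log scale, scaled by library total) within each annotated cell class (horizontal axis), 1 point per library with at least 20 cells of the class, coloured by group. T cells lie below microglia and macrophages for all 8 genes by their medians, while Ctsh of dendritic cells stays near that of macrophages.

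By annotated class, cathepsins were mainly transcripts of microglia and macrophages, with monocytes lower and dendritic cells and T cells lowest. These levels are CPM scaled by the total of each class sum, over libraries with at least 20 cells of the class, and no test is given because the classes were made from the same RNA. The 8 genes summed to a median of 33524 CPM in microglia (range 22578 to 43760, n = 10 libraries), 27376 in macrophages (18797 to 40816, n = 10), 14824 in monocytes (10799 to 20127, n = 5), 5275 in dendritic cells (4213 to 5724, n = 5) and 1840 in T cells (838 to 4426, n = 8). Ranges of microglia and macrophages over all libraries overlapped for every member. Within the same library, macrophages held 0.653 to 0.944 of the microglial sum in 7 of 7 libraries, and they were below microglia in 7 of 7 for Ctsa, Ctsh, Ctsl, Ctss and Ctsz, but above in 4 for Ctsb, 3 for Ctsc and 2 for Ctsd. The macrophage sums also held microglial transcripts. Their 7 microglial markers summed to 520 to 1811 CPM in the infiltrating gate and 3271 to 4923 CPM in the resident gate, where the macrophage markers summed to 1592 to 3255 CPM in the infiltrating gate and 258 to 2262 CPM in the resident gate. The part of these markers in the class differences was not tested. Border-associated macrophages (38 cells) and neutrophils (14 cells) were too few to be given.

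Macrophages differed from monocytes of the same infiltrating library in most members. Ctsd was 2.13 to 4.01 times higher in macrophages, Ctsb 2.03 to 3.31 times, Ctsl 1.60 to 2.95 times, Ctsz 1.40 to 1.74 times, Ctsa 1.32 to 1.52 times and Ctss 1.26 to 1.92 times, in 5 of 5 libraries each. Ctsc ran the other way, with macrophages at 0.573 to 0.955 of monocytes in 5 of 5 libraries, and monocytes had its highest median of any class, 1201 CPM (range 775 to 1910). Ctsh was near even, at 0.94 to 1.21. Dendritic cells were set apart by which members they held. Their Ctsd was 0.0147 to 0.0533 of that in macrophages and their Ctsb 0.0498 to 0.0988, whereas Ctsh was kept at 0.627 to 0.767, Ctsz at 0.261 to 0.447 and Ctsc at 0.301 to 0.436. The dendritic cell sums held 442 to 3543 CPM of the 5 monocyte markers, beside 172 to 559 CPM of the 5 dendritic cell markers. The part of these monocyte markers in the result was not tested. T cells held 0.0416 to 0.101 of the microglial sum of the same library. The cells annotated as T cells also held natural killer cell markers, which in chronic infiltrating library a summed to 8449 CPM beside 3849 CPM of T cell markers, and how much of their cathepsin signal came from free RNA was not tested. Dendritic cells lay below T cells for Ctsd, at a median of 87.1 against 552 CPM.

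Macrophages of the resident gate carried more Ctsd and Ctsz than those of the infiltrating gate in chronic EAE. Their Ctsd was 4236 to 5925 CPM in the infiltrating gate and 7169 to 10464 CPM in the resident gate (n = 3 libraries each), and their Ctsz was 1701 to 2054 CPM in the infiltrating gate and 2423 to 3038 CPM in the resident gate, in both cases with no overlap. The other 6 members overlapped between gates, such as Ctsc at 609 to 1095 CPM in the infiltrating gate and 698 to 925 CPM in the resident gate. The share of all genes without overlap between these sums was not counted, and the gate difference within macrophages was not tested. Microglial markers in these macrophage sums stood at 678 to 1811 CPM in the infiltrating gate and 3271 to 4849 CPM in the resident gate, also with no overlap, and their part in the result was not tested.

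**Figure D4:**
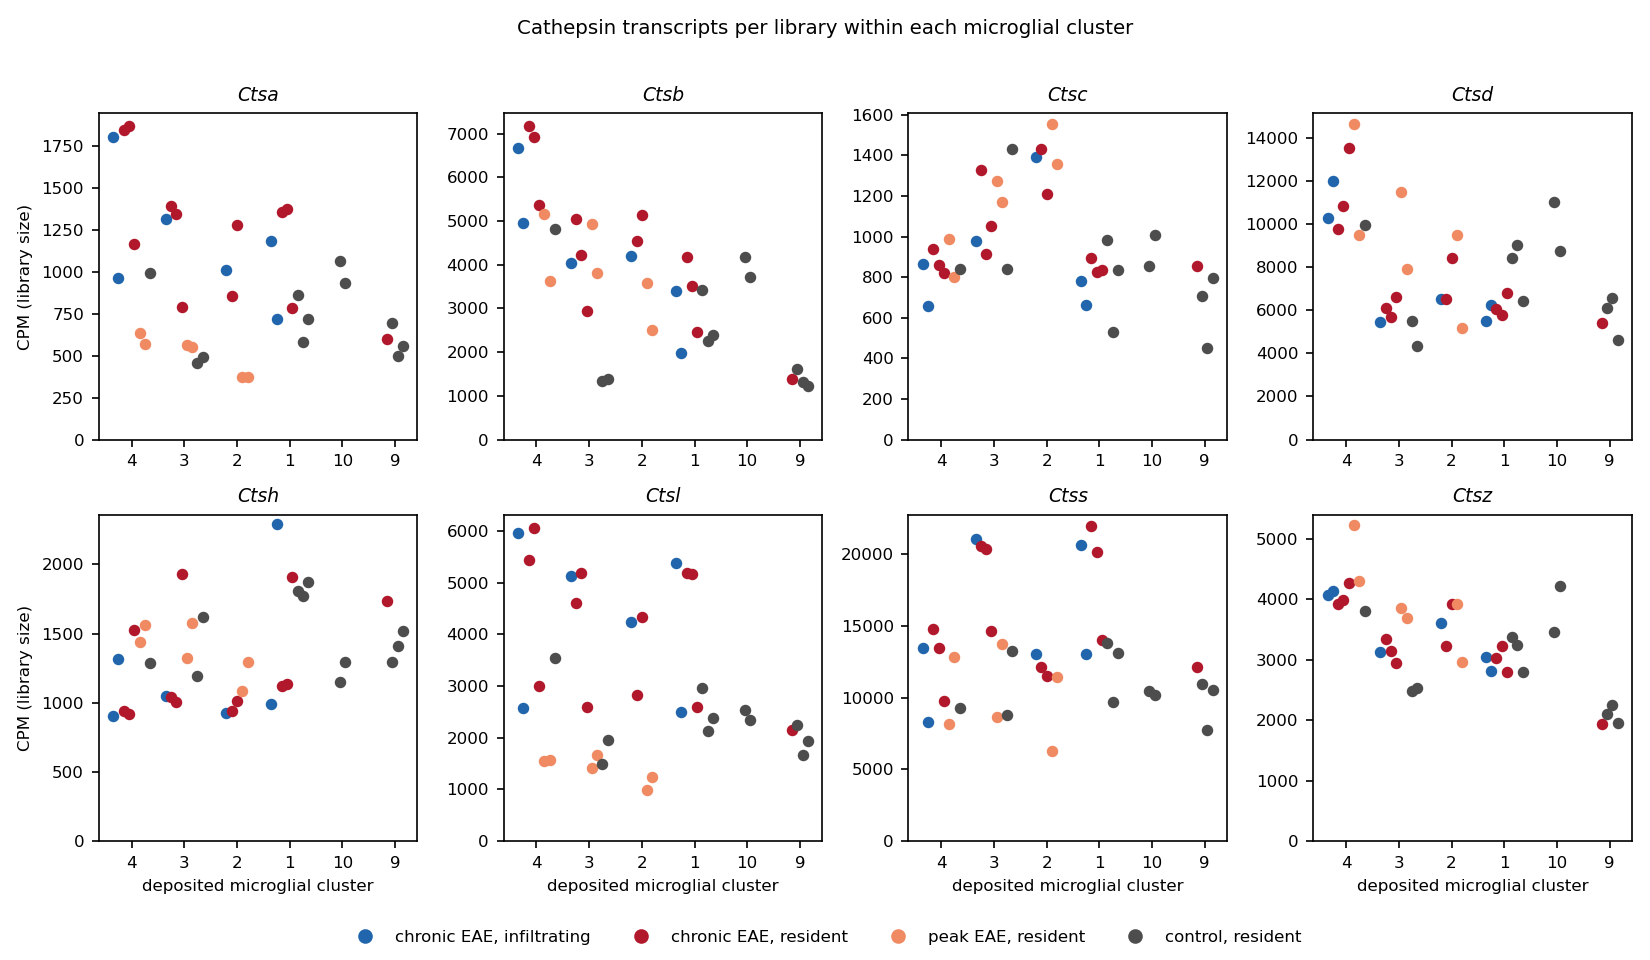
Level of each cathepsin (vertical axis, CPM scaled by library total, from 0) within each deposited microglial cluster (horizontal axis), 1 point per library with at least 20 cells of the cluster, coloured by group. Ctsb and Ctsd are higher and Ctss is lower in cluster 4 than in cluster 1 of the same library, and Ctsa and Ctsl of peak EAE libraries lie below those of chronic EAE libraries within clusters 2, 3 and 4.

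The deposited microglial clusters divided the family. Cluster 9 held 87.8% to 94.6% of control microglia and at most 0.512% of microglia in any resident EAE library. Clusters 1 and 4 held most chronic EAE microglia of the resident gate, and cluster 3 held 56.4% to 68.9% of peak EAE microglia. The mix differed between chronic libraries. Cluster 1 held 19.7%, 20.7% and 62.3% of the microglia of chronic resident libraries a, b and c. Cluster 3 held 21.9%, 30.7% and 9.32% of the same cells. As above, no test is given across clusters. Cluster 4 over cluster 1 of the same library, in 6 of 6 libraries, was 1.71 to 2.50 for Ctsb, 1.55 to 1.98 for Ctsd, 1.34 to 1.52 for Ctsa, 1.24 to 1.53 for Ctsz and 1.02 to 1.49 for Ctsl. The same ratio was 0.635 to 0.710 for Ctss and 0.575 to 0.915 for Ctsh, below 1 in 6 of 6 libraries. Cluster 1 over cluster 9, in 4 of 4 libraries, was 1.70 to 2.13 for Ctsb, 1.43 to 1.60 for Ctsz and 1.26 to 1.39 for Ctsd. Cluster 2 over cluster 3 was 1.08 to 1.42 for Ctsc in 5 of 5 libraries, while Ctss was at 0.566 to 0.834.

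Groups were also set side by side within single clusters, in CPM scaled by library totals and not by TMM. In the microglial sums, TMM factors were 0.925 to 1.05 in chronic EAE and 1.31 to 1.45 in controls. A larger factor lowers the TMM-scaled level. In cluster 3, Ctsb was 2939 to 5056 CPM in chronic EAE resident libraries (n = 3), 3801 to 4938 CPM in peak EAE (n = 2) and 1347 to 1397 CPM in controls (n = 2), so EAE and control cells of that cluster did not overlap. In cluster 1, Ctsb was 2469 to 4188 CPM in chronic EAE (n = 3) and 2252 to 3422 CPM in controls (n = 3), which overlapped. In the same cluster, Ctsd was 5796 to 6819 CPM in chronic EAE and 6425 to 8999 CPM in controls, and Ctsz was 2789 to 3227 CPM in chronic EAE and 2789 to 3367 CPM in controls, so both overlapped with the higher mean in controls. In cluster 4, Ctsa was 1168 to 1869 CPM in chronic EAE (n = 3), 568 to 635 CPM at peak EAE (n = 2) and 995 CPM in the 1 control library with enough cells. In the same cluster Ctsl was 2992 to 6058 CPM in chronic EAE, 1539.6 to 1577 CPM at peak EAE and 3545 CPM in that control, so within cluster 4 the peak libraries were the low ones. Ctsa of cluster 3 was 793 to 1392 CPM in chronic EAE and 551 to 562 CPM at peak EAE, and that of cluster 2 was 859 to 1276 CPM in chronic EAE and 372 to 376 CPM at peak EAE, with no overlap in either. Ctsd of cluster 4 overlapped, at 9757 to 13506 CPM in chronic EAE and 9475 to 14612 CPM at peak EAE.

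Other lists of lysosomal genes were read in microglia against the shares of all genes given above, 11.3% higher and 6.46% lower in chronic EAE and 12.3% higher and 9.67% lower at peak EAE. Of 22 lysosomal hydrolases and related lumenal proteins, 8 rose and 1 fell in chronic EAE over control (median log2 fold change 0.60, against -0.01 over all genes), and 7 rose and 3 fell at peak EAE (median 0.41, against 0.00 over all genes). Npc2, a cholesterol carrier of the lumen, averaged 2145 ± 348 CPM in chronic EAE microglia (SD, n = 3 libraries), 1553 ± 314 CPM at peak EAE (n = 2) and 676 ± 98 CPM in control microglia (n = 3). It rose by 1.67 ± 0.26 on the log2 scale in chronic EAE (SE, edgeR adjusted p = 0.000754) and by 1.20 ± 0.28 at peak EAE (edgeR adjusted p = 0.00789). Gaa, the acid alpha-glucosidase, rose by 1.26 ± 0.23 in chronic EAE (edgeR adjusted p = 0.00213) and by 1.36 ± 0.25 at peak EAE (edgeR adjusted p = 0.0019). Arsb, arylsulfatase B, fell at both stages, with log2 fold changes of -1.98 ± 0.34 in chronic EAE (edgeR adjusted p = 0.00136) and -1.33 ± 0.38 at peak EAE (edgeR adjusted p = 0.024), and the chronic call was lost in 2 of 13 alternatives.

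Of 16 subunits and accessory proteins of the proton pump that acidifies lysosomes, 8 rose in chronic EAE (median log2 fold change 0.78). At peak EAE 2 of the 16 rose (median 0.43), a share near the 12.3% of all genes. Atp6v1a, its catalytic subunit, rose by 1.26 ± 0.25 in chronic EAE (edgeR adjusted p = 0.00374) and by 0.94 ± 0.27 at peak EAE (edgeR adjusted p = 0.0257), where the call was lost in 7 of 11 alternatives. Of 9 lysosomal membrane proteins, 3 rose in chronic EAE (median 0.57), and the call of 1 of them, Cd68, was lost in 10 of 13 alternatives. At peak EAE 1 of the 9 rose (median -0.02), near the share of all genes. Cd63, a tetraspanin of late endosomes, averaged 2405 ± 634 CPM in chronic EAE microglia, 1286 ± 385 CPM at peak EAE and 369 ± 24.4 CPM in control microglia. It rose by 2.70 ± 0.29 in chronic EAE (edgeR adjusted p = 4.51e-05) and by 1.80 ± 0.30 at peak EAE (edgeR adjusted p = 0.00106).

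Of 9 genes that tag and sort lysosomal proteins, 6 rose and 1 fell in chronic EAE (median log2 fold change 0.90). At peak EAE 4 rose and 1 fell (median 0.69). The chronic calls of the sorting receptors M6pr and Sort1 were lost in 8 and 9 of 13 alternatives. Igf2r, a receptor for mannose 6-phosphate, averaged 10.1 ± 2.13 CPM in chronic EAE microglia, 12.2 ± 4 CPM at peak EAE and 1.01 ± 0.341 CPM in control microglia. It rose by 3.33 ± 0.36 in chronic EAE (edgeR adjusted p = 4.19e-05) and by 3.61 ± 0.38 at peak EAE (edgeR adjusted p = 3.51e-05). Gnptab, part of the enzyme that adds the tag, rose by 1.06 ± 0.28 in chronic EAE and by 2.43 ± 0.31 at peak EAE (edgeR adjusted p = 0.0194 and 0.000138), and the chronic call was lost in 5 of 13 alternatives. In chronic over peak EAE microglia it fell, with a log2 fold change of -1.37 ± 0.30 (edgeR adjusted p = 0.0197), a call lost in 6 of 12 alternatives. Grn, progranulin, averaged 1478 ± 539.9 CPM in chronic EAE microglia, 2545 ± 265 CPM at peak EAE and 732 ± 83.7 CPM in control microglia, and rose at both stages (edgeR adjusted p = 0.042 and 0.0027). Of 5 other lysosomal peptidases, Dpp7 and Scpep1 rose at both stages, and the peak call of Dpp7 was lost in 4 of 11 alternatives. Legumain (Lgmn), which processes several cathepsins, averaged 2577 CPM in chronic EAE microglia, 3110.1 CPM at peak EAE and 2688 CPM in control microglia, and was not called (edgeR adjusted p = 0.912 and 0.7). Among the 4 transcription factors of lysosomal genes, Mitf, Tfe3, Tfeb and Tfec, Tfe3 fell in chronic EAE, with a log2 fold change of -0.87 ± 0.28 (edgeR adjusted p = 0.0442), a call lost in 8 of 13 alternatives.

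Of 12 listed inhibitors, mostly of cysteine proteases, 5 passed the filter on low counts. Among these, 3 rose in chronic EAE, where 11.3% of all genes rose and 6.46% fell. At peak EAE 2 rose and 1 fell, where 12.3% of all genes rose and 9.67% fell. Cst7, cystatin F, which inhibits cathepsin C inside the endolysosome, averaged 1050.4 ± 554 CPM in chronic EAE microglia, 521 ± 9.66 CPM at peak EAE and 17.8 ± 2.09 CPM in control microglia. It rose by 5.88 ± 0.89 in chronic EAE (edgeR adjusted p = 0.000549) and by 4.87 ± 0.88 at peak EAE (edgeR adjusted p = 0.00164). Cstb, the cytosolic stefin B, rose by 2.55 ± 0.40 in chronic EAE and by 1.85 ± 0.42 at peak EAE (edgeR adjusted p = 0.000687 and 0.00625). Cst3, the secreted cystatin C, averaged 25938 ± 6444 CPM in chronic EAE microglia, 6036 ± 398 CPM at peak EAE and 48835 ± 13333 CPM in control microglia. Its log2 fold change was -0.91 ± 0.34 in chronic EAE, which was not called (edgeR adjusted p = 0.0741), and -3.02 ± 0.43 at peak EAE (edgeR adjusted p = 0.000291). In chronic over peak EAE microglia, Cst3 rose by 2.10 ± 0.41 (edgeR adjusted p = 0.0109), a call lost in 4 of 12 alternatives.

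Genes of MHC class II antigen processing, in which cathepsins S and L act, were tested for 8 of the 9 listed. Of these, 6 rose in chronic EAE, where 11.3% of all genes rose, and 8 rose at peak EAE, where 12.3% did. H2-Ab1 averaged 1031 ± 552 CPM in chronic EAE microglia, 3537 ± 511 CPM at peak EAE and 20.8 ± 5.97 CPM in control microglia. It rose by 5.63 ± 0.50 in chronic EAE and by 7.41 ± 0.56 at peak EAE (edgeR adjusted p = 1.04e-05 and 3.84e-06). In chronic over peak EAE microglia, H2-Ab1 had a log2 fold change of -1.78 ± 0.46 and its activator Ciita one of -4.08 ± 0.56, both lower (edgeR adjusted p = 0.0322 and 0.0024), and the H2-Ab1 call was lost in 6 of 12 alternatives. In the same comparison Ctss stood at 0.63 ± 0.47 and was not called. Of the 6 cathepsin genes outside the 8, 5 were tested. Ctse, an aspartic endosomal protease, averaged 5.71 ± 1.94 CPM in chronic EAE microglia, 3.43 ± 0.77 CPM at peak EAE and 0.643 ± 0.222 CPM in control microglia, and rose at both stages (edgeR adjusted p = 0.00031 and 0.00378). Ctso, a cysteine cathepsin, fell at peak EAE, with a log2 fold change of -0.88 ± 0.22 (edgeR adjusted p = 0.0103), and had one of -0.18 ± 0.19 in chronic EAE that was not called (edgeR adjusted p = 0.527).

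In infiltrating monocytes and macrophages, 4 genes of these lists were called between chronic and peak EAE, all higher in chronic EAE, where 0.566% of all genes were higher and 0.227% lower. They were 1 of 9 membrane proteins (Cd63), 1 of 5 other lysosomal peptidases (Dpp7), 1 of 5 other cathepsins tested (Ctsf) and 1 of 16 proton pump genes (Atp6v0d2). Of 12 alternatives, the call was lost in 9 for Dpp7, 8 for Ctsf, 6 for Atp6v0d2 and 3 for Cd63. Cd63 averaged 1684 ± 239.9 CPM in chronic EAE (n = 3) and 273 ± 71.4 CPM at peak EAE (n = 2), a log2 fold change of 2.62 ± 0.34 (SE, edgeR adjusted p = 0.00578). Dpp7, a dipeptidyl peptidase, rose by 1.09 ± 0.23 (edgeR adjusted p = 0.0459). Ctsf, a cysteine cathepsin outside the 8, averaged 9.96 ± 7.96 CPM in chronic EAE and 0.691 ± 0.0832 CPM at peak EAE (edgeR adjusted p = 0.0459). Between gates at peak EAE, Ctsf fell to 0.698 CPM in the infiltrating gate, against 79.4 CPM in the resident gate, and Lgmn to 775 CPM, against 3038 CPM (edgeR adjusted p = 0.00987 and 0.0249), and of 9 alternatives the call was lost in 2 for Ctsf and 4 for Lgmn.

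The 8 members did not share one pattern over the 13 sums of the first fit. On log2(CPM + 1), Pearson's r was 0.89 between Ctsa and Ctss, 0.82 between Ctsd and Ctsz, 0.78 between Ctsa and Ctsb and 0.75 between Ctsa and Ctsl, whereas Ctsh stayed between -0.16 and 0.45 with every other member. These 13 points share groups, pools and cell classes and are given as a description. Among 4216 genes with an average log2 CPM of at least 5, the closest patterns were those of Glmp for Ctsa (r = 0.97), Erg28 for Ctss (0.97), Hcar2 and Vcam1 for Ctsz (0.97 and 0.95), Eprs for Ctsb (0.95), Cox6a2 for Ctsd (0.94), Max for Ctsc (0.94), Itm2b for Ctsl (0.93) and Smarca5 for Ctsh (0.83). Gaa was among the 3 closest genes of both Ctsd (0.91) and Ctsz (0.93).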

How the data were processed

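Single-cell RNA sequencing counts were analysed from 13 libraries. The deposited matrix holds UMI counts per gene and cell, made by the authors with Cell Ranger 3.1.0 and R 4.1.3 on the GRCm38 (mm10) genome, per the submitters' processing notes. The deposited cell table gives each cell's library, pool, gate, class and microglial cluster, its percent of mitochondrial counts and log10 values of its totals, as computed by the authors. The highest mitochondrial percentage was 5.0 and 0 cells were marked as doublets, so no further cell filter was applied. A dense text copy of the counts was not used.

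Counts were summed per library, over microglia (resident gate) or monocytes plus macrophages (infiltrating gate), and over all cells for gate comparisons. Genes were filtered with filterByExpr, scaled by TMM and tested two-sided with edgeR 4.0.16 (limma 3.58.1, R 4.3.3) in a fit of all 5 groups with 8 residual degrees of freedom. P-values were Benjamini-Hochberg adjusted over all genes tested, at a threshold of 0.05. The biological coefficient of variation was 26.02% (classes) and 31.2% (all cells). Libraries are labelled as biological replicates, and the letters a, b and c only name them. Levels by class and cluster used library totals and at least 20 cells per library. Likeness used log2(CPM + 1) and an average log2 CPM of at least 5. Python 3.11.15, pandas 2.3.3, numpy 2.4.6 and matplotlib 3.10.9 were used. The fit was tested on simulated data.

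Genes named are the 8 members, up to 4 genes with the smallest p per pathway list and comparison, and the 3 genes most like each member. The members and lists were chosen with earlier results of these data known. Alternatives were library-size scaling, DESeq2 1.42.0, no filter on low counts, pool as a term, fits of the compared groups alone, sums over all cells, each library left out, at least 50 cells and, chosen after seeing the data, no pool D libraries.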

Additional observations from a re-analysis of the deposited data

Results flagged for a closer look

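Microglia sorted into the infiltrating gate entered no test between classes, and in chronic EAE libraries b (1915 cells) and c (74 cells) 5 cathepsins stood above the highest control microglia, in CPM scaled by library total. Ctsa was 1537 CPM in library b and 868 CPM in library c, against at most 718 CPM in control microglia. Ctsb was 5284 and 3663 CPM in libraries b and c, against at most 1832 CPM in controls. Ctsd was 7954 and 9186 CPM in libraries b and c, against at most 6787 CPM in controls. Ctsl was 5579.7 and 2519 CPM in libraries b and c, against at most 2298 CPM in controls. Ctsz was 3596 and 3472 CPM in libraries b and c, against at most 2391 CPM in controls. The other members overlapped the controls: Ctsc was 715 to 896 CPM against at most 808 CPM in controls. Ctsh was 963 to 1727 CPM against at most 1512 CPM, and Ctss 10578 to 16915 CPM against at most 11097 CPM. The share of all genes above the highest control in both libraries was not counted, so the 5 have no background. With this scaling, fewer cathepsins were called in chronic EAE resident microglia over control than with TMM. These values have no test.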

How the results depend on the processing

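Of the called values of the 8 cathepsins recomputed under the alternatives, 94 stayed called, 36 lost the call and 0 changed sign. Of those not called, 159 stayed so, 14 became called and 7 changed sign. The cause was not tested for any of them.

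For peak EAE against control microglia, 4 members were called, against 2 with library size only, 2 over all cells and 2 to 3 with 1 library left out. For chronic EAE against control microglia, 5 were called, against 3 with library size only, 3 with pool as a term, 1 without the pool D libraries and 3 to 6 with 1 library left out. For chronic against peak EAE microglia, 1 was called, against 2 with DESeq2, 2 without the filter, 2 with only the groups compared, 0 with pool as a term, 0 over all cells, 0 without pool D and 0 to 1 with 1 library left out. For infiltrating cells, 0 were called and 1 with DESeq2. Between gates at peak EAE, 1 was called, against 2 with library size only, 2 with DESeq2 and 0 to 1 with 1 library left out. Between gates in chronic EAE, 0 were called, against 1 with DESeq2 and 0 to 2 with 1 library left out. Over all genes, DESeq2 called 1502 in chronic against peak EAE microglia, where edgeR called 1124. Between gates at peak EAE it called 2795, where edgeR called 2220. The share of all genes called is not set beside each member count above, so these counts describe the members only.

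Signs changed for these log2 fold changes: Ctsa at peak EAE was -0.13 and Ctsh in chronic EAE -0.19 with library size only. With pool as a term, Ctsl was 0.58 at peak EAE over control and -0.0091 in chronic over peak EAE. With 1 library left out, Ctsl at peak EAE ran between -0.29 and 0.12 and Ctss between -0.0169 and 0.86.

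Counts over all genes moved by over 1.5 times as follows. Chronic EAE against control microglia had 2034 genes called, 4189 with library size only, 475 with pool as a term, 422 without pool D and 908 to 3125 with 1 library left out. Peak EAE against control had 2525, and 996 to 2293 with 1 library left out. Chronic against peak EAE microglia had 1124, 1763 with only the groups compared, 1 with pool as a term, 260 over all cells, 501 without pool D and 38 to 891 with 1 left out. Infiltrating cells had 91, 400 with DESeq2, 360 without the filter, 1 with pool as a term, 0 with only the groups compared, 13 over all cells, 218 without pool D and 8 to 462 with 1 left out. The interaction had 5, 41 with DESeq2, 35 without the filter, 1 with only the groups compared, 1 over all cells and 0 to 28 with 1 left out. Gates at peak EAE had 2220, 721 with pool as a term and 345 to 2205 with 1 left out. Gates in chronic EAE had 188, 95 with library size only, 578 with DESeq2, 403 without the filter, 43 with pool as a term, 0 with only the groups compared, 793 without pool D and 0 to 1859 with 1 left out.

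No paired analysis was possible because the cell table carries no replicate number of the labels.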
